A study of Mus musculus with 3 samples.

Results

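Brush-border peptidases are the enzymes on the apical membrane of enterocytes that cut dietary peptides into absorbable pieces, and 9 of their genes were examined for nearby ESRRA binding: Anpep, Enpep, Xpnpep2, Dpp4, Ace, Mme, Mep1a, Mep1b and Naaladl1. An ESRRA peak was counted for a gene where its midpoint lay within 30 kb of an annotated transcript start site of that gene, and genes without such a peak were kept. The 9 genes belong to 22225 protein-coding gene symbols of the GENCODE M1 annotation, and 9 of the 1639 peaks met the rule. ESRRA, estrogen-related receptor α, was mapped by ChIP-seq in cross-linked adult villus cells from the duodenal epithelium of wild-type mice, in 2 ChIP libraries made with an anti-ESRRA antibody and 1 library of input chromatin of the same genotype and cells. The number of mice behind each library was not given in the sources used here. The data were 1 list of peaks called on both ChIP libraries after merging, each 601 bp wide and with no height, so that the values below have no replicate error. Read depth is unknown from such a list, and expression was not analysed here, so the cell type could not be checked against markers.

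Peptides left by gastric and pancreatic digestion are trimmed at the brush border from both ends and from within. Aminopeptidases remove residues from the N terminus, Dpp4 and Ace release dipeptides from the N and the C terminus, and endopeptidases such as neprilysin and the meprins cut inside the chain. ESRRA is an orphan nuclear receptor best known for binding at genes of mitochondrial energy metabolism. It recognises TCAAGGTCA, the ESRR sequence, which consists of the hexamer AGGTCA, a half-site shared by many nuclear receptors, and an extension at its 5′ end. AAGGTCA, its shorter form, is called the extended half-site below.

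The sequences at the middle of the peaks differed in kind. Peaks are numbered along each gene in the direction of transcription. Shown first is the middle of Dpp4 peak 2 (chr2:62229317-62229417), the only member peak to hold AAGGTCA, with the match to TNAAGGTCA in capitals. The middles of the Enpep peak (chr3:129028216-129028416) and of Anpep peak 2 (chr7:86973994-86974194) follow because both lie in tandem repeats, and 1 repeat unit of each is in capitals. The middle of Anpep peak 1 (chr7:86986298-86986398), the peak nearest to a start site, is shown because the printed stretch holds no half-site, although the peak has 1 farther from its midpoint. The last pair are overlapping stretches before the Anpep gene (chr7:86993841-86993889 and chr7:86993868-86993916), where TCAAGGTCA, in capitals, occurred with no peak over it. All are on the minus strand of mm9, which is the strand of these 3 genes, and read 5′ to 3′.
Dpp4 peak 2: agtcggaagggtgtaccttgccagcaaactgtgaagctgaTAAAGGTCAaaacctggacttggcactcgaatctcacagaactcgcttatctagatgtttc
Enpep peak: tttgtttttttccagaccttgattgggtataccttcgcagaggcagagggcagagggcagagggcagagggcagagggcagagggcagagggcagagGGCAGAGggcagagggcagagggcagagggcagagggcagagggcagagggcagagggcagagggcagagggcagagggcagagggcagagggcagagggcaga
Anpep peak 2: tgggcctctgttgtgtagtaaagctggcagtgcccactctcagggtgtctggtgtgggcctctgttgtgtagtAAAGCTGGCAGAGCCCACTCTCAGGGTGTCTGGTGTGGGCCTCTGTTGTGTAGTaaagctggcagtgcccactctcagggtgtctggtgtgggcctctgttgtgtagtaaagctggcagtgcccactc
Anpep peak 1: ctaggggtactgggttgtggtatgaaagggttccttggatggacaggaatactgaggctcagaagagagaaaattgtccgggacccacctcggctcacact
Anpep upstream, nearer match: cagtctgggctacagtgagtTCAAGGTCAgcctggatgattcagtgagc
Anpep upstream, farther match: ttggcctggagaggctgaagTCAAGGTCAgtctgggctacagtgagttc

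ESRRA peaks lay near 3 of the 9 peptidase genes (33.3%). Anpep had 5 peaks, Dpp4 had 3 and Enpep had 1, whereas Mme, Mep1a, Mep1b, Ace, Xpnpep2 and Naaladl1 had none. Among all protein-coding genes, 1954 of 22225 (8.79%) had a peak at this distance. At least 3 peaks were found at 0.796% of protein-coding genes and at least 5 peaks at 0.180%. These are descriptions of 1 peak list, and the share of members was not tested against the share of all genes. The span searched was not equal, since genes with several start sites reach farther: it ran from 60 kb at Naaladl1, which has 1 start site, to 127 kb at Dpp4, which has 6.

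**Figure D1:**
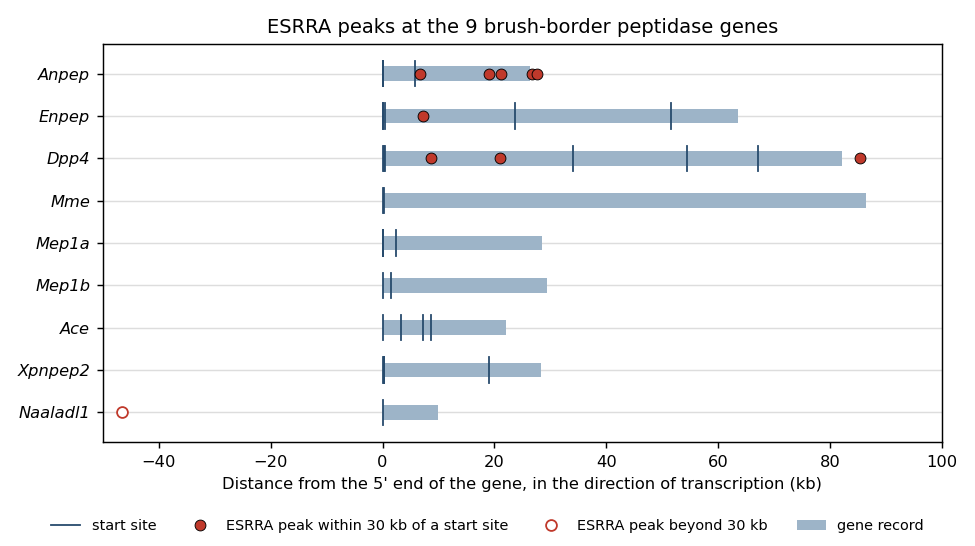
Peaks at the 9 genes, drawn by distance from the 5′ end of each gene in the direction of transcription (kb). Bars are gene records, vertical ticks are annotated start sites, filled points are peaks within 30 kb of a start site, and the open point is the nearest peak of Naaladl1, 46.6 kb before its start. The 9 filled points sit at Anpep, Enpep and Dpp4, and none lies before the 5′ end of a gene.

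None of the 9 peaks was within 1 kb of the 5′ end of a member gene. By the 5′ ends, the nearest were Anpep peak 1 at 6748 bp, the Enpep peak at 7322 bp and Dpp4 peak 1 at 8589 bp, all downstream. Measured from any annotated start site of the gene, 1 peak, Anpep peak 1, was within 1 kb, while 29.8% of all 1639 peaks were within 1 kb of a start site of some gene. By midpoint, 6 of the 9 peaks lay in introns and 3 past the 3′ end of the gene. Of all peaks, 55.3% had their midpoint inside a protein-coding gene record, and 9.46% lay outside such records and within 5 kb past a 3′ end. For 6 of the 9 peaks the nearest start site of a protein-coding gene belonged to the member, and the exceptions are the 3 peaks past the 3′ ends.

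Anpep encodes aminopeptidase N, an abundant zinc enzyme of the microvillus that removes neutral residues from peptides. The gene (chromosome 7, 86966689 to 86993096, minus strand, 26.4 kb) had peaks from intron 2 to beyond its last exon. Anpep peak 1 (chr7:86986048-86986648) had its midpoint in intron 2, 890 bp downstream of an internal protein-coding start site, and 192 of its 601 bases were exonic. Peak 2 (chr7:86973794-86974394) lay wholly within intron 15, 19002 bp from the 5′ end. Peak 3 (chr7:86971680-86972280) had its midpoint in intron 16, 21116 bp from the 5′ end, with 111 exonic bases. The widest gap of the run was between peaks 1 and 2, at 12254 bp from midpoint to midpoint, while peaks 2 and 3 were 2114 bp and peaks 3 and 4 were 5697 bp apart.

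Anpep peaks 4 and 5 were past the end of the gene and touched no annotated exon. Peak 4 (chr7:86965983-86966583) had its midpoint 406 bp past the 3′ end and peak 5 (chr7:86965194-86965794) 1195 bp past it. Their midpoints were 789 bp apart, so that joining peaks less than 1 kb apart made 1 region of them. Mesp2, a transcription factor gene of early mesoderm, had the nearest protein-coding start site to both, at 10670 bp and 9881 bp, and Anpep start sites were 20955 bp and 21744 bp away. By the nearest start site these 2 peaks belong to Mesp2, and by the 30 kb rule they count for both Anpep and Mesp2. Anpep peaks 2 and 3 also lay within 30 kb of a Mesp2 start site, although Anpep start sites were nearer. Of the 5 Anpep peaks, only peak 1 had no start site of another protein-coding gene within 30 kb.

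Dpp4 encodes dipeptidyl peptidase 4, a serine peptidase that releases dipeptides ending in proline or alanine and also cuts incretin hormones. The gene (chromosome 2, 62168130 to 62250288, minus strand, 82.2 kb) had a pair of peaks in intron 2. Peak 1 (chr2:62241399-62241999) was 8589 bp and peak 2 (chr2:62229067-62229667) 20921 bp from the 5′ end, with 12332 bp between their midpoints and no exonic base in either. Both also lay inside Gm13561, a noncoding transcript annotated on the opposite strand. Peak 3 (chr2:62164685-62165285) was placed differently, 85303 bp from the 5′ end and 3145 bp past the 3′ end of Dpp4. It met the rule only through an internal start site of a retained-intron transcript, 18218 bp away. Its midpoint was 198 bp past the 3′ end of Slc4a10, a bicarbonate transporter gene that runs towards Dpp4, and 103 of its bases were in the last exon of that gene. With the start sites of protein-coding transcripts alone, Dpp4 kept 2 of its 3 peaks, and Anpep and Enpep kept all of theirs.

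Enpep encodes aminopeptidase A, which removes acidic residues and also converts angiotensin peptides. The gene (chromosome 3, 128972093 to 129035638, minus strand, 63.5 kb) had 1 peak (chr3:129028016-129028616), in intron 1, 7322 bp from the 5′ end and with no exonic base. The next peak along the chromosome was 253847 bp away. The Enpep peak thus stood alone, unlike the run at Anpep, and lay over the repeat of 7 bases shown above.

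Tandem repeats covered the middle of 2 of the 9 peaks. At Enpep, a repeat of 7 bases extended over 228 bp of the mm9 sequence (chr3:129028152-129028379, 32.6 units) and included the midpoint of the peak. At Anpep peak 2, a unit of 54 bases was repeated over 1849 bp (chr7:86973548-86975396, 34.2 units), which covered all 601 bases. A repeat was counted where at least 80% of the middle 201 bases equalled the base 1 period further on for some period from 2 to 100 bases. As a measure of repeated sequence, every stretch of 24 bases in a peak was counted in the genome, the peak's own place included. Peaks with a median above 10 copies were called multi-copy (19.8% of all peaks) and the rest single-copy. Tandem repeats were found in 2.99% of all peaks, 1.37% of single-copy peaks and 0.618% of windows of the same width 2 kb away. In the other 7 member peaks the highest share of equal bases was between 35.0% and 37.5%. Anpep peak 2, with a median of 28 copies, was the 1 multi-copy member peak. The median was 1.5 copies at Enpep and 1 in the other 7. The count at Anpep peak 2 includes the units of its own repeat, so the 2 measures are not separate there. The part of these repeats in the calling of the peaks was not tested.

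The full ESRR sequence TCAAGGTCA was in 0 of the 9 member peaks, beside 14.3% of all 1639 peaks. AAGGTCA was in 1 of the 9, Dpp4 peak 2, beside 44.0% of all peaks, 51.4% of the 1315 single-copy peaks and 1 of 16 flanking windows of the member peaks. That match, TAAAGGTCA on the minus strand at chr2:62229369-62229377, was centred 6 bp from the midpoint of the peak, in intron 2 of Dpp4. The hexamer AGGTCA was more common, in 5 of 9 member peaks, 7 of 16 flanking windows and 61.4% of all peaks. Apart from the match in Dpp4 peak 2, its distance from the midpoint was 59.5 bp in Anpep peak 4, 174.5 bp in Dpp4 peak 3, 186.5 bp in Dpp4 peak 1 and 223.5 bp in Anpep peak 1, where it lay in a coding exon. Anpep peaks 2, 3 and 5 and the Enpep peak held no AGGTCA on either strand. With 9 peaks, of which the 5 at Anpep are neighbours, these counts were set beside the shares of all peaks and not tested.

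The best match to TCAAGGTCA with mismatches allowed was then taken from each peak. Positions are counted from 1 at the 5′ end of TCAAGGTCA, and its base is given first. Dpp4 peak 2 differed by C2A alone and the Enpep peak by A9T alone, at chr3:129028395-129028403, 83 bp from the midpoint and outside the repeat. Matches with at most 1 mismatch were thus in 2 of 9 member peaks, beside 46.3% of all peaks. In Dpp4 peaks 1 and 3 and in Anpep peaks 1, 3, 4 and 5 the best match had 2 mismatches, and in Anpep peak 2 it had 3. No Anpep peak, therefore, came within 1 base of the full sequence.

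**Figure D2:**
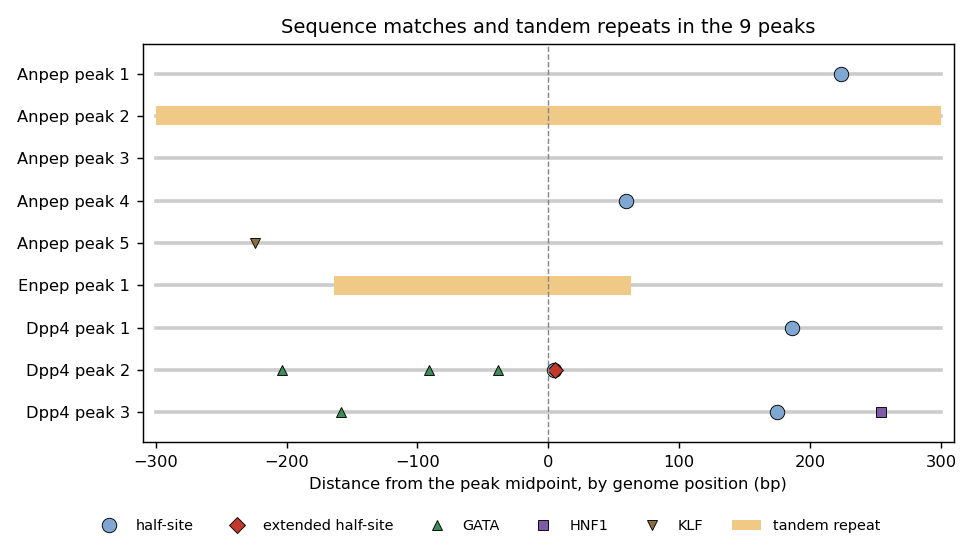
Sequence matches in the 9 member peaks by distance from the peak midpoint (bp). Grey lines are the peaks of 601 bp, orange bars are tandem repeats, and symbols mark matches on either strand to the half-site AGGTCA, the extended half-site AAGGTCA and the sequences searched for GATA, HNF1 and KLF factors. The extended half-site appears once, in Dpp4 peak 2, centred 5 bp from the midpoint, and the repeats span the midpoints of Anpep peak 2 and the Enpep peak.

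Sequences of other enterocyte transcription factors were searched on both strands in the same peaks. GATA factors, CDX2, HNF1 and HNF4 are known regulators of enterocyte genes. AGATAA, the GATA sequence, was found in Dpp4 peaks 2 and 3, beside 27.5% of all peaks and 7 of 16 flanking windows of the member peaks. Dpp4 peak 2 held 3 matches together with the extended half-site. GTTAATNAT, for HNF1, occurred once, in Dpp4 peak 3, 254 bp from the midpoint (1.83% of all peaks, 1 of 16 flanking windows). GGGTGTG, for KLF factors, occurred in Anpep peak 5 (15.3% of all peaks, 0 of 16 flanking windows). CAAAGTCCA (HNF4), TTTATGG (CDX), TGANTCA (AP-1) and the backward control ACTGGAACT were in 0 member peaks, beside 2.56%, 6.59%, 17.4% and 0.427% of all peaks. In the 16 flanking windows they were in 0, 2, 3 and 0. AGGTCA is part of AAGGTCA, TNAAGGTCA and TCAAGGTCA, so those counts are not separate. GC content ran from 32.8% in Dpp4 peak 3 to 56.7% in Anpep peak 2, with a median of 52.4%, beside 50.4% in single-copy peaks.

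The 6 genes without a peak within 30 kb differed widely in how far the nearest peak lay. Naaladl1, which encodes a peptidase related to glutamate carboxypeptidase, came nearest: a peak (chr19:6058832-6059432) was 46.6 kb before its start site, but 1239 bp from a start site of Fau, a ribosomal protein gene. The nearest peak was 394 kb from Mep1a and 764 kb from Mep1b, the genes of the α and β subunits of meprin, a secreted and membrane-bound metallopeptidase. It was 969 kb from Ace, whose product removes dipeptides from the C terminus and forms angiotensin II. Mme, the gene of neprilysin, and Xpnpep2, the gene of the membrane-bound aminopeptidase P that frees residues in front of proline, were the farthest, at 2195 kb and 2612 kb.

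Over all protein-coding genes the median distance to a peak was 446 kb, with quartiles of 139 and 1197 kb. A nearer peak was found for 1.97% of protein-coding genes in the case of Anpep, 3.87% for Enpep, 4.26% for Dpp4 and 11.8% for Naaladl1. The share was 46.8% for Mep1a, 64.2% for Mep1b, 70.1% for Ace, 87.3% for Mme and 90.1% for Xpnpep2. The members were therefore spread over both ends of the range of all genes. For Mme, Mep1b, Ace and Xpnpep2 the nearest peak was multi-copy, and the nearest single-copy peak was 2363, 11305, 3035 and 11126 kb away. The 601 bases around the 5′ end of each of the 9 genes were single-copy, with a median of 1 copy, and the searched spans held no unknown bases.

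**Figure D3:**
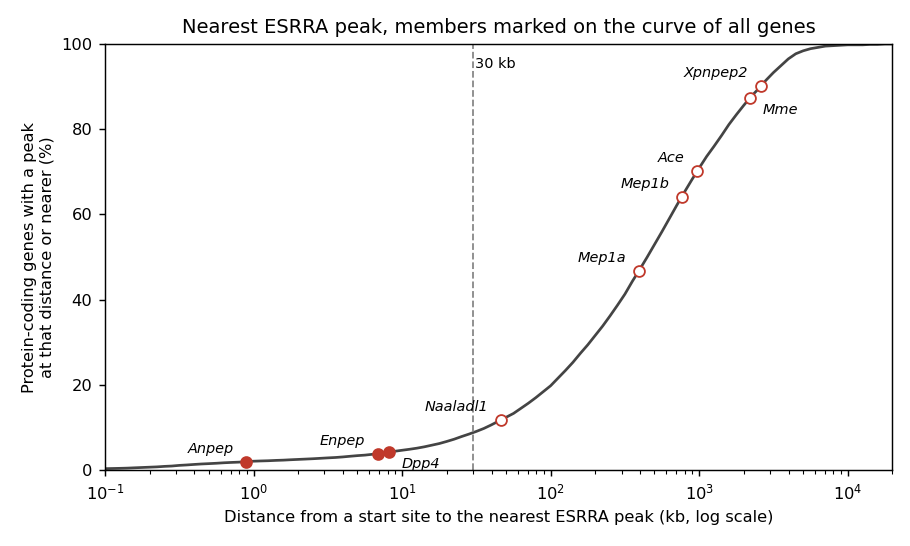
Distance from a start site to the nearest ESRRA peak (kb, log scale) against the percentage of the 22225 protein-coding genes with a peak at that distance or nearer. The grey curve is all protein-coding genes, points are the 9 members (filled with a peak within 30 kb, open without), and the dashed line marks 30 kb. Anpep, Enpep and Dpp4 lie at the foot of the curve between 0.89 and 8.22 kb, Naaladl1 at 46.6 kb, and the other 5 from 394 kb upwards.

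The receptor's sequence was also sought in the whole span within 30 kb of the start sites, whether or not a peak was there. TCAAGGTCA occurred 23 times near the 9 genes, and 0 of the 23 lay in a peak. Anpep had 6 of these matches, Naaladl1 had 4, Mep1a and Xpnpep2 had 3 each, Enpep and Dpp4 had 2 each, and Mme, Mep1b and Ace had 1 each. Every member had at least 1, including the 6 without a peak, which held 13. Over the 21 chromosomes the sequence occurred 56720 times, and 320 matches (0.564%) lay in a peak. The density was 0.911 per 10 kb at Anpep, between 0.146 (Ace) and 0.667 (Naaladl1) at the others, and 0.214 over the chromosomes.

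Some of these matches without a peak were close to start sites or to peaks. Before Anpep, 2 matches lay at -769 bp and -796 bp from the 5′ end, at chr7:86993861-86993869 and chr7:86993888-86993896. The nearest peak midpoint was 7517 and 7544 bp away. The 49 bases around each had a median of 1 copy. Only identical 24-base words counted as copies, so a diverged repeat can also have a median of 1. Repeat families were not analysed here. At Xpnpep2 a match lay at -802 bp from the 5′ end, in sequence with a median of 30 copies. In intron 2 of Dpp4 a match at chr2:62229823-62229831 was 460 bp from the midpoint of peak 2, outside its 601 bp. Beyond Anpep, a match at chr7:86964676-86964684 was 814 bp from the midpoint of peak 5, also outside it. For the shorter AAGGTCA, 121 matches were found near the 9 genes and 1 lay in a peak, beside 0.206% of 504476 matches over the chromosomes.

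**Figure D4:**
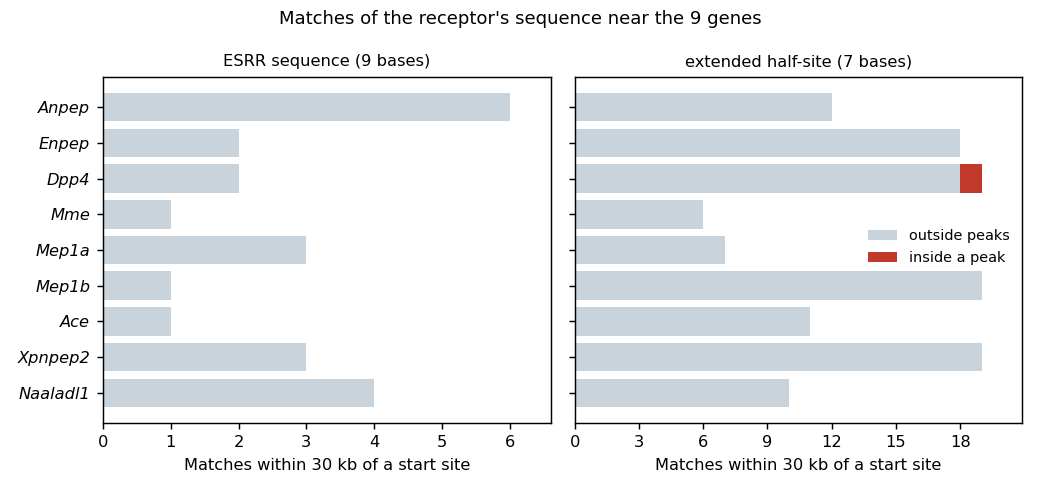
Number of matches to TCAAGGTCA (left, ESRR sequence) and AAGGTCA (right, extended half-site) within 30 kb of a start site of each member, on either strand. Grey bars count matches outside peaks and the red segment counts those inside a peak. The 23 matches on the left are all outside peaks, and on the right 1 of 121, at Dpp4, is inside one.

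Promoter windows from RefSeq, from 250 bases before to 50 after a start in the GRCm38.p6 assembly, were available for 7 of the members, in 10 windows. AAGGTCA was in 0 of the 10, beside 4.72% of 32851 promoter windows, and AGGTCA was in 1, at an internal start of Ace, beside 16.3%. Mep1b and Naaladl1 had no entry.

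Other peptidases were compared by the same count. A list of 7 was taken as further surface peptidases (Ggt1, Dpep1, Folh1, Tmprss15, Cpm, Ecel1, Mmel1). Neither their place in the cell nor their expression in enterocytes was checked here. Of the 7, 1 had a peak (14.3%), beside 8.79% of all protein-coding genes. Ggt1, which opens the γ-glutamyl bond of glutathione, had 2 peaks, both with AAGGTCA, the nearer 47 bp from a start site. Peptidases of the cytosol finish the digestion of absorbed dipeptides and tripeptides or turn over cellular peptides. A list of 12 was taken as such, and the place of their products in the cell was not checked here. Of the 12, 4 had a peak (33.3%). These were Cndp2, Rnpep, Thop1 and Nln, with 1, 2, 2 and 1 peaks. Of these peaks 3 in all held AAGGTCA, beside 44.0% of all peaks. Neither list was tested against the 9 members.

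Sugar digestion is the other main task of the brush border. Of 7 genes of sugar digestion and uptake, 5 had a peak (71.4%), beside 8.79% of all protein-coding genes. They had 30 peaks in all, of which 7 held AAGGTCA, beside 44.0% of all peaks. Slc5a1 had 12 peaks, Mgam 7, Sis 5, Lct 4 and Slc2a2 2, and 2 of the 4 at Lct were single-copy. Of 10 peptide and amino acid transporter genes, 2 had a peak (20%), Slc6a19 with 2 and Slc3a2 with 1. Slc15a1, the peptide transporter that takes up the products of these enzymes, had its nearest peak at 31.2 kb, just beyond the limit. For the members, the farthest peak inside the limit of 30 kb was at 21744 bp (Anpep) and the nearest outside it at 46650 bp (Naaladl1).

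The genes most like Anpep, by the number of peaks within 30 kb, were 18 protein-coding genes that also had 5, and 21 had more. The first in alphabetical order were Abcc2, an apical export pump, the apolipoprotein genes Apoa4, Apob and Apoc3, and Armc7. By the 30 kb rule, neighbouring genes can count the same peak, so these genes need not be separate places. Around the 40 genes with 5 or more peaks, Anpep included, lay 132 distinct peaks, 110 of them single-copy. Of those, 32 (29.1%) held AAGGTCA, while at Anpep 0 of 4 single-copy peaks did.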

How the data were processed

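ESRRA ChIP-seq and input libraries from wild-type villus cells were grouped by their titles. As the methods and the labels state, the authors aligned paired-end reads to mm9 with Bowtie2 2.2.6 and merged both ChIP libraries with SAMtools 0.1.19. The deposited list is named for peak calling with MACS2 at a p-value of 1e-05. Any further filter, and the step that fixed the width, is not given in the sources used here. The deposited list held 3 columns, chromosome, start and end, in base pairs. Merging adds reads to each peak but hides differences between libraries, and weak and strong peaks count alike.

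Positions were counted from 1 and compared with GENCODE M1 on the mm9 sequence. Exons and introns were numbered in the longest protein-coding transcript. Sequences were matched exactly on both strands (Python 3.11.15, pysam 0.24.0, numba 0.67.0). Copies of each 24-base word of a peak were counted over the genome, and a median above 10 was called multi-copy. Only identical words were counted, so diverged copies of a repeat were not. Functions were tested on simulated sequences. The members and lists were chosen with earlier results of these data known, and the tandem repeat measure, the 3′ end classes and the matches outside peaks after the peaks were seen. Named are all members, the nearest other gene of each peak, listed genes with a peak, and up to 5 genes with as many peaks as Anpep. Outside this rule, the other surface peptidases are named as the content of their list, Gm13561 and Fau for their position, and Slc15a1 was chosen after its value was seen. Protein sequences were not analysed here. A further gene planned for the list of surface peptidases was left out of it and is not reported here, so that 7 remain.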

Additional observations from a re-analysis of the deposited data

How the results depend on the processing

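With distances of 50 and 100 kb, other start sites, peak edges, single-copy peaks alone or assignment to the nearest gene, between 3 and 4 members had a peak, with 6 to 10 peaks in all. Single-copy peaks still included the only Enpep peak, with a median of 1.5 copies, although a tandem repeat covers its middle. Leaving out peaks over tandem repeats was not among the settings. Shorter distances changed the counts most: within 1 kb and within 5 kb, 1 member had a peak, with 1 peak, and within 10 kb 3 members had 3 peaks. The number of member peaks with the receptor's sequence depended on its length, at 0 for TCAAGGTCA, 1 for AAGGTCA, 2 for TCAAGGTCA with at most 1 mismatch (chosen after seeing the data) and 5 for AGGTCA. The 1 peak within 1 kb of its own start site was not within 500 bases, where the count was 0. The median nearest distance of 394 kb moved to at most 397 kb. Leaving out a ChIP replicate, or a stricter p-value, needs peaks per replicate or scores, which were not analysed here. No paired analysis was possible because the deposited list pools the ChIP libraries. Without scores, peaks near the calling threshold could not be told from strong ones.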
